A study of Mus musculus with 24 samples.

Results

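The Fc gamma receptors, their shared signalling chain and the neonatal Fc receptor were followed in the frontal cortex of GFAP-IL6 mice. Their 6 genes, Fcgr1, Fcgr3, Fcgr4, Fcgr2b, Fcer1g and Fcgrt, were selected by symbol from the 33000 genes of the deposited count table, of which 20629 had at least 1 count. Each symbol matched 1 gene, and all 6 genes passed the filter on low counts. RNA came from 3 WT and 3 homozygous GFAP-IL6 mice, all C57BL/6 and 3 months old. In the GFAP-IL6 line a transgene under the Gfap promoter expresses Il6 in astrocytes. Each mouse gave 4 3'Pool-seq libraries, made with 2 ng or 1 ng of cDNA in each of sets A and B, which makes 24 libraries in 4 sets (2ngA, 2ngB, 1ngA and 1ngB). The study prepared libraries of the same samples more than once, but the labels do not tie the letters A and B to a step.

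Fc gamma receptors bind the constant part of IgG and tie antibody to phagocytes. Fcgr1, Fcgr3 and Fcgr4 encode activating receptors that signal through the ITAM of the FcR gamma chain, the product of Fcer1g, which Src family kinases phosphorylate to recruit Syk. Fcgr2b encodes the inhibitory receptor, whose ITIM recruits the phosphatase SHIP-1 (Inpp5d) and dampens the same signals. Fcgrt encodes the heavy chain of the neonatal receptor, which pairs with beta-2-microglobulin (B2m) and recycles IgG inside cells. In brain the classical receptors are known mainly from microglia and border macrophages.

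The labels were first checked against the targeted gene. Il6 had 5, 3 and 0 counts in WT mice 1, 2 and 3 and 30, 33 and 163 counts in GFAP-IL6 mice 1, 2 and 3. Gfap, an astrocyte filament gene that rises in reactive astrocytes, stood at 20.3, 23.5 and 16.0 CPM (counts scaled to a library total of 1000000, after TMM correction of the totals) in WT and at 80.9, 101.9 and 146.4 CPM in GFAP-IL6. Both genes went with the labels in every mouse. The 7 cortical neuron markers were all tested and none was called (0 at an unadjusted p under 0.05 by edgeR, 0 called by DESeq2), and Snap25 lay at 3591 ± 386 CPM in WT and 3540 ± 313 CPM in GFAP-IL6 (SD, n = 3 mice each).

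4 of the 6 genes lie in 1 stretch of chromosome 1 in build mm10. Fcgr2b (chr1:170958617-170976547, minus strand), Fcgr4 (chr1:171018920-171029761, plus strand), Fcgr3 (chr1:171051174-171064935, minus strand) and Fcer1g (chr1:171229572-171234365, minus strand) together span 275749 nt. Fcgr1 lies at chr3:96282909-96293969 and Fcgrt at chr7:45092990-45103851, both on the minus strand. All 6 are protein-coding genes. Fcgr2b and Fcgr3 share 106 stretches of 70 nt, the read length of the study, which is 6.12% of those in Fcgr3 and 1.84% of those in Fcgr2b. Counting all other genes, 325 stretches of Fcgr2b (5.65%) are shared, with 80 genes that include Fcgr3. None of the shared stretches lies in the last 300 nt of a coding transcript. 3'Pool-seq reads come from near the 3' end, but the study's libraries were on average longer than 300 nt. A read may therefore begin further upstream, and how many reads fall on shared stretches was not tested. The antisense gene Gm45669 overlaps Fcgrt near its 3' end on the other strand, and whether reads were counted by strand is not given in the sources used here, so reads of the pair cannot be told apart.

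The promoter windows of 4 receptor genes are shown because these genes moved together and their windows hold letters of motifs for factors of myeloid cells and of cytokine signalling. The windows reach from 250 bases before to 50 bases after the RefSeq gene start (GRCm38.p6) and all 6 genes had 1, Fcgr3 a further 1 that is shifted by a few bases and not shown. The motifs were TTCNNNGAA, the palindrome bound by STAT factors, GAGGAA, the core bound by PU.1, and AANNGAAA, the core bound by IRF factors, each searched on both strands, with overlaps between matches allowed. These letters were chosen with the windows in view. Capitals mark a match. The Fcgr1 window is chr3:96293920-96294219 (minus strand), that of Fcgr4 chr1:171018676-171018975 (plus), that of Fcgr3 chr1:171059345-171059644 (minus) and that of Fcgr2b chr1:170976022-170976321 (minus). The windows of Fcgr3 and Fcgr2b lie wholly inside the gene spans given above. Their RefSeq starts thus differ from the outer ends of those spans, and other starts of these genes were not searched.
Fcgr1: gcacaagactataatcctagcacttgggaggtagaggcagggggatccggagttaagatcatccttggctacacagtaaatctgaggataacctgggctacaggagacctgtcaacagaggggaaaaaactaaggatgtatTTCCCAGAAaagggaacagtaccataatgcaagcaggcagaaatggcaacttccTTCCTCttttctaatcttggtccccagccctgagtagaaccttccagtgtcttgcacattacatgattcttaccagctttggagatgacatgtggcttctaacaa
Fcgr4: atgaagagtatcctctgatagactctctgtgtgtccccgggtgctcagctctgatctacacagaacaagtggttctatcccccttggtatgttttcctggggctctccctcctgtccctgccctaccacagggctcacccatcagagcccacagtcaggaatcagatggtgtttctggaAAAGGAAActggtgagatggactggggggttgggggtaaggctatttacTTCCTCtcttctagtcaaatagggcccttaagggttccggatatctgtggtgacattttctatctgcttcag
Fcgr3: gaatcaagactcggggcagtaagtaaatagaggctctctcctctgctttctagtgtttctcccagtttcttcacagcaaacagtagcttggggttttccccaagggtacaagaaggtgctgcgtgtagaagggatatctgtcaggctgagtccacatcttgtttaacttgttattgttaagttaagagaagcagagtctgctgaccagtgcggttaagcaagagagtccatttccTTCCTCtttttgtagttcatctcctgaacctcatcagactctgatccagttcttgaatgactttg
Fcgr2b: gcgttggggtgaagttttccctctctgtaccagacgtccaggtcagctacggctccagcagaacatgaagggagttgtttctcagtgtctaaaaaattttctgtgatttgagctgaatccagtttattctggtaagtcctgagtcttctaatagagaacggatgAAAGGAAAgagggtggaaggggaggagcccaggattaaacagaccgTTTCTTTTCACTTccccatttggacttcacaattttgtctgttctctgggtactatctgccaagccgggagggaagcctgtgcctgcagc
Fcgr1 was the only one of the 6 genes with the STAT palindrome, as TTCCCAGAA, and it begins 109 bases before the start. Across the promoters of 27025 genes, 9.55% held such a palindrome. The PU.1 core, as TTCCTC on the strand shown, was in the windows of Fcgr1, Fcgr3 and Fcgr4 and in 31.25% of all promoters. The IRF core was in the windows of Fcgr4 and Fcgr2b, in both as AAAGGAAA and in Fcgr2b also as the overlapping TTTCTTTT and TTTCACTT of the other strand, and in 26.7% of all promoters. The windows of Fcer1g and Fcgrt held none of these letters. A match describes the letters and is not a site.

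All 3 activating receptors, the inhibitory receptor and the gamma chain were higher in GFAP-IL6 cortex, and Fcgrt was not called. Counts were summed over the 4 libraries of a mouse, since those libraries share its RNA, and genotypes were compared by edgeR's quasi-likelihood test with Benjamini-Hochberg adjustment over all 14621 genes tested. A gene was called when its adjusted p was under 0.05 and its log2 fold change lay beyond 1 in either direction. By this rule 5 of the 6 genes were called, all higher, where 1.2% of all tested genes were called higher (176 of 14621). Every GFAP-IL6 mouse lay above every WT mouse for the same 5 genes, and for 8.43% of all genes tested.

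**Figure D1:**
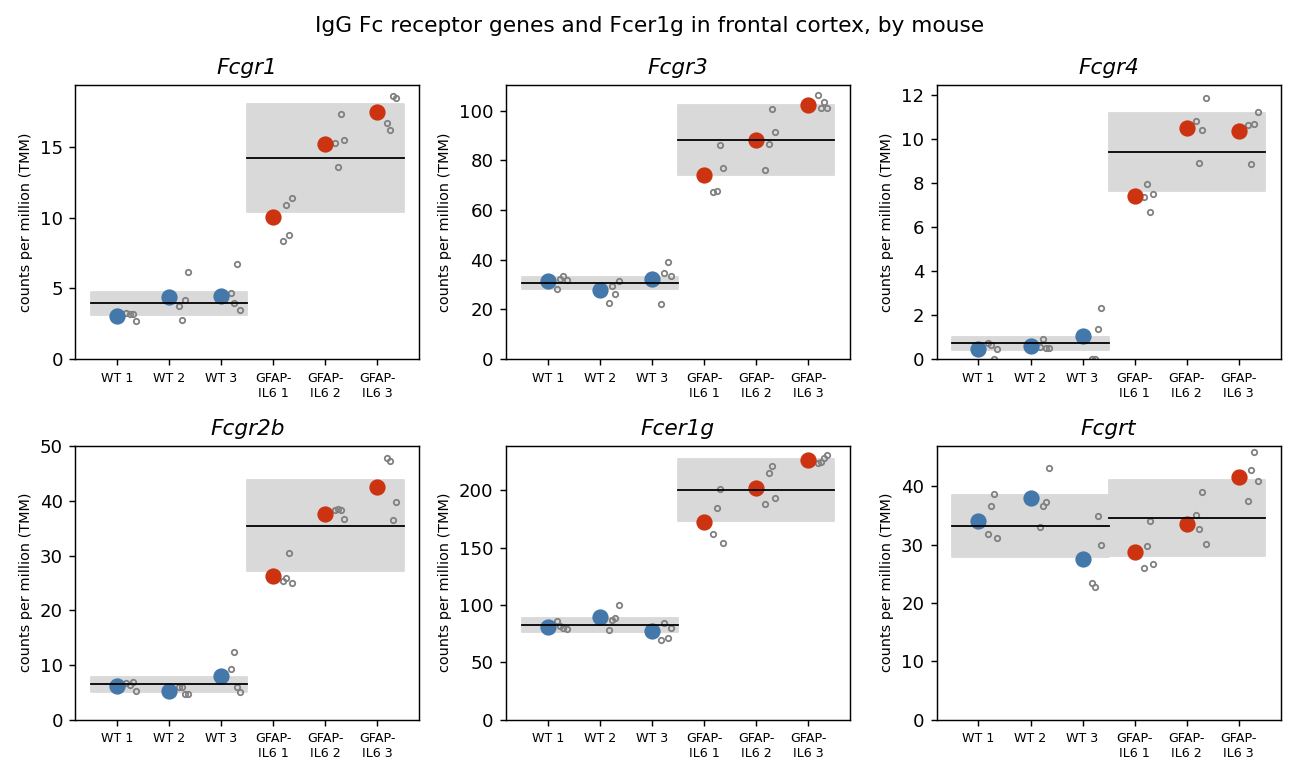
CPM of each gene by mouse (large points, blue for WT and red for GFAP-IL6, counts summed over the 4 libraries) and by library (small open circles), with the mean of each genotype (line) and its SD (grey band), on linear axes that start at 0. The GFAP-IL6 points lie above all WT points for 5 genes, while those of Fcgrt (28.7 to 41.5 CPM) overlap the range of the WT points (27.6 to 38.1 CPM).

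Fcgr4, the activating receptor for IgG2 subclasses, changed most among the 6. It had 9, 11 and 8 counts in the WT mice and 70, 219 and 399 counts in the GFAP-IL6 mice, or 0.468, 0.610 and 1.05 CPM against 7.38, 10.5 and 10.4 CPM. The gene was close to the limit of detection in WT, where 10 of the 12 libraries had 3 counts or fewer and 3 had none, and each GFAP-IL6 library had at least 13 counts. The log2 fold change was 3.90 (SE 0.29, adjusted p = 1.41e-06), which placed Fcgr4 9th of the 14621 genes in order of log2 fold change. With so few WT counts the size of the difference rests on 28 reads in all.

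Fcgr1, the high-affinity receptor, gave 3.02, 4.38 and 4.46 CPM in WT and 10.02, 15.2 and 17.5 CPM in GFAP-IL6. The lowest GFAP-IL6 mouse was 2.25 times the highest WT mouse. Its log2 fold change was 1.91 (SE 0.22, adjusted p = 0.000114).

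Fcgr3, a low-affinity activating receptor, gave 31.4, 27.9 and 32.4 CPM in WT, a narrow range. In GFAP-IL6 it gave 74.1, 88.2 and 102.3 CPM, with all 3 mice far above it. The log2 fold change was 1.54 (SE 0.12, adjusted p = 1.59e-06), the smallest of the 3 activating receptors.

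Fcgr2b, the inhibitory receptor, stood at 6.19, 5.21 and 8.01 CPM in WT. In the GFAP-IL6 mice it stood at 26.4, 37.6 and 42.6 CPM, and the groups did not overlap. Its log2 fold change of 2.53 (SE 0.19, adjusted p = 1.41e-06) was above those of Fcgr1 and Fcgr3 and below that of Fcgr4.

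Fcer1g, the gamma chain on which the activating receptors depend for signalling, went from 81.0, 89.3 and 77.0 CPM to 172.6, 201.8 and 226.3 CPM. It had the smallest difference of the 5 called genes, with a log2 fold change of 1.28 (SE 0.10, adjusted p = 2.73e-06). In all 5 called genes, and also in Fcgrt, which was not called, GFAP-IL6 mouse 1 was the lowest of its group. That mouse also had the lowest total of its group (9534116 counts against 20641341 and 37582644), and the part of depth in this order was not tested. With every mouse thinned to 7852743 counts, the same number of members, 5, was called.

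Fcgrt gave 34.1, 38.1 and 27.6 CPM in WT and 28.7, 33.5 and 41.5 CPM in GFAP-IL6. The groups overlapped and the log2 fold change was 0.06 (SE 0.14, adjusted p = 0.958). A difference within this spread between mice was not detectable, and the sign of the value changed when WT mouse 3 (-0.037) or GFAP-IL6 mouse 3 (-0.10) was left out. B2m, its light chain partner, gave 354 ± 5.43 CPM in WT and 526 ± 78.8 CPM in GFAP-IL6 (SD, n = 3 each). B2m had a log2 fold change of 0.57 (SE 0.10, adjusted p = 0.00612), which passed the adjusted p but not the fold threshold.

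Within each set the same 5 genes were called. Set 2ngA had 0.681% of its genes called higher, 2ngB 0.736%, 1ngA 0.758% and 1ngB 0.748%. The groups did not overlap for these 5 genes in any of the 4 sets, and they overlapped for Fcgrt in all 4. The share of all genes that separate within a set was not counted. In the summed counts 8.43% of all genes had every GFAP-IL6 mouse above every WT mouse. Log2 fold changes ranged between sets from 3.62 to 4.38 for Fcgr4, from 2.36 to 2.79 for Fcgr2b, from 1.89 to 2.13 for Fcgr1, from 1.45 to 1.78 for Fcgr3 and from 1.17 to 1.42 for Fcer1g. The narrowest separation was for Fcgr1 in set 2ngB, where the highest WT library had 6.71 CPM and the lowest GFAP-IL6 library 8.76 CPM. Since the sets repeat the same mice, they describe technical spread and add no animals.

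**Figure D2:**
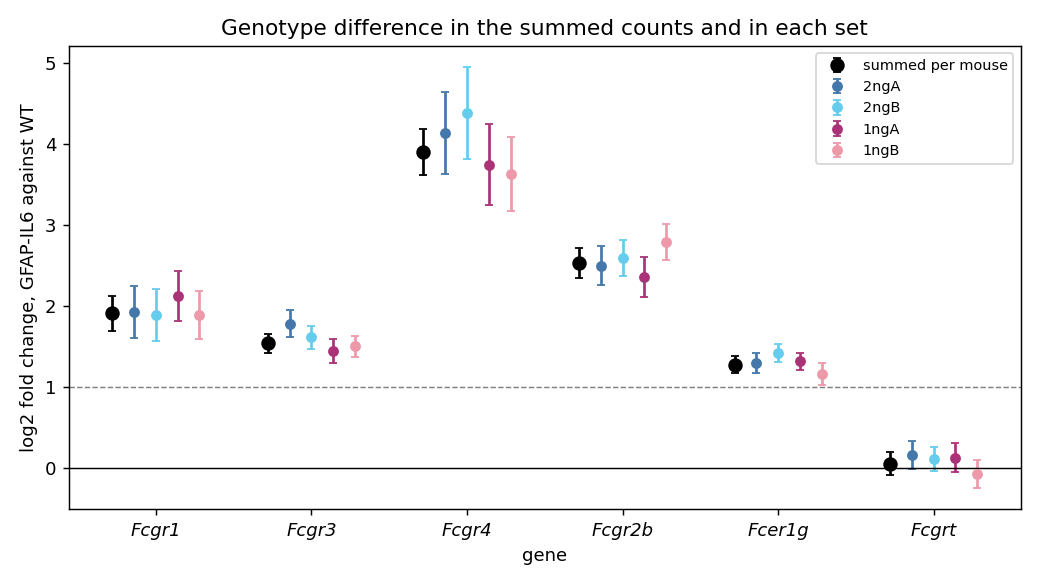
Log2 fold change of GFAP-IL6 against WT for each gene, from counts summed per mouse (black) and from each of the 4 sets (colours). The SE bars are the absolute log2 fold change divided by the square root of edgeR's F statistic. The solid line is at 0 and the dashed line at the threshold of 1. For 5 genes all 5 values lie above the threshold, with Fcgr4 highest (3.62 to 4.38 in the sets), and for Fcgrt all lie near 0 (-0.068 to 0.16 in the sets).

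The amount of cDNA did not bring any of the 6 genes past the test. In a model with the mouse as a term, 28.7% of 12146 genes (3488) differed between 2 ng and 1 ng at an adjusted p under 0.05 by edgeR. Of the 6 genes, 0 did, 0 reached an unadjusted p under 0.05, and the lowest adjusted p was 0.687, for Fcgrt. The genotype difference was also tested for dependence on the amount of cDNA and on the set letter. For the amount, 0% of 12146 genes passed (249 at an unadjusted p under 0.05), and for the letter also 0% (668 at an unadjusted p under 0.05), with none of the 6 genes below an unadjusted p of 0.05 in either. For Fcgr1 and Fcgr4 the 4 libraries of a mouse scattered about as counting error predicts (chi-square per degree of freedom 0.899 and 0.960). They scattered more widely for Fcer1g (2.94), Fcgr3 (2.20), Fcgrt (1.91) and Fcgr2b (1.90), the gene to which the ratios below refer.

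The balance of activating to inhibitory receptor counts was compared within each mouse, where it does not depend on library scaling. Counts come from the 3' end and are not divided by length, so only the same ratio is compared between genotypes. To each count or sum of counts 0.5 was added before a ratio was taken. Fcgr3 counts were 5.05, 5.33 and 4.02 times those of Fcgr2b in WT and 2.81, 2.35 and 2.399 times in GFAP-IL6. Fcgr1 counts were 0.490, 0.841 and 0.561 times those of Fcgr2b in WT and 0.381, 0.405 and 0.410 times in GFAP-IL6. Both ratios were lower in each GFAP-IL6 mouse than in each WT mouse. Fcgr4 went the other way, from 0.0795, 0.122 and 0.138 times Fcgr2b to 0.281, 0.280 and 0.243 times.

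On the log2 scale, with 0.5 added to each count, the ratio to Fcgr2b differed by -0.92 for Fcgr3, by -0.62 for Fcgr1 and by 1.28 for Fcgr4 (GFAP-IL6 minus WT, n = 3 mice each). The exact two-sided permutation test gave p = 0.1 for each of the 3 ratios, also after Benjamini-Hochberg adjustment, the smallest p that 3 against 3 mice allow, so these differences in the ratio did not pass 0.05 and could not have. The direction was the same in each of the 4 sets for all 3 ratios. The sum of the 3 activating receptors, most of which is Fcgr3, was 5.61, 6.28 and 4.71 times Fcgr2b in WT and 3.47, 3.03 and 3.05 times in GFAP-IL6, a log2 difference of -0.79 that is given without a test. WT mouse 2 carries much of the Fcgr1 value, since without it the log2 difference was -0.39.

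As shares of the counts on the 4 receptor genes, Fcgr3 made up 73.4% ± 2.93 in WT and 60.1% ± 2.45 in GFAP-IL6 (SD, n = 3 mice each). Fcgr2b made up 15.4% ± 1.89 and 23.9% ± 1.37, and Fcgr4 1.68% ± 0.576 and 6.40% ± 0.485. Fcgr1 kept a like share, at 9.52% ± 2.08 and 9.55% ± 0.910. Behind these shares are 350 to 789 counts in a WT mouse and 1118 to 6658 in a GFAP-IL6 mouse. Fcgr3 was the most counted receptor gene in every mouse of both genotypes.

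**Figure D3:**
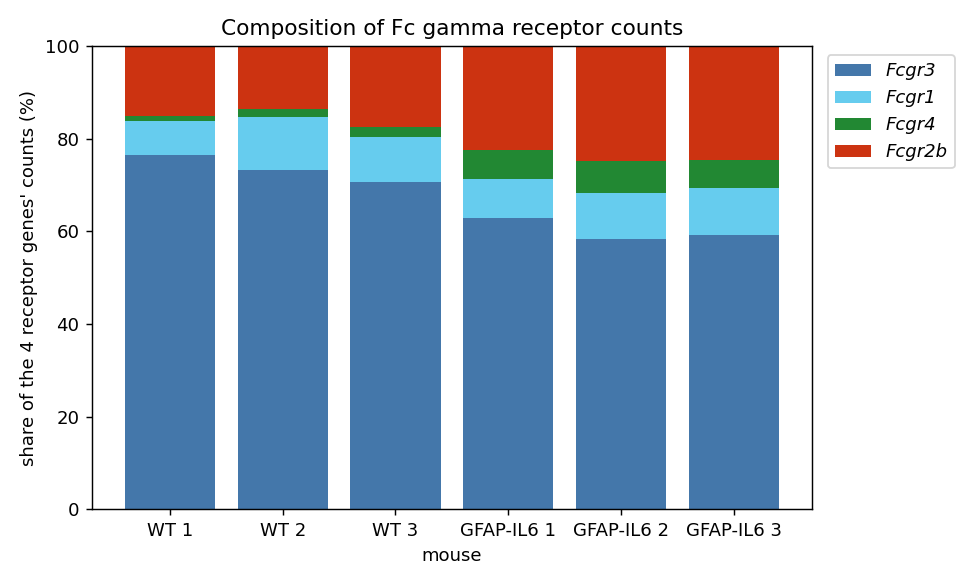
Shares (%) of the counts on Fcgr3, Fcgr1, Fcgr4 and Fcgr2b in each mouse, counts summed over 4 libraries, stacked to 100%. The Fcgr2b block is 13.7% to 17.4% in the WT mice and 22.4% to 24.8% in the GFAP-IL6 mice, and the Fcgr4 block 1.14% to 2.29% and 5.99% to 6.93%.

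Genes of the pathway around the receptors were read from 9 lists with 85 genes, of which 60 could be tested. Of these 60, 13 were called higher and 0 lower, and their median log2 fold change was 0.65, against -0.01 over all 14621 genes tested. Each of the 13 was also called by DESeq2, and 7 of them, among which were Trem2, Vav1, Lcp2, Rac2, Pirb and Cyba, were called without any 1 mouse. The calls of the other 6 depended on single mice, and between 7 and 14 pathway genes were called when a mouse was left out, with 7 without WT mouse 1, 8 without WT mouse 2, 7 without GFAP-IL6 mouse 2 and 7 without GFAP-IL6 mouse 3.

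Among ITAM adaptors and receptors of microglia, 1 of 3 tested genes was called. Trem2, a lipid receptor that signals through the adaptor DAP12, rose from 31.9 ± 2.66 to 72.5 ± 11.0 CPM (SD, n = 3 mice each; log2 fold change 1.18, adjusted p = 2.63e-05). Tyrobp, which encodes DAP12, an ITAM chain like that of Fcer1g, gave 81.9 ± 10.3 and 146.9 ± 26.9 CPM and passed the adjusted p (0.00102) but not the fold threshold (log2 fold change 0.86).

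Of the kinases next to the receptor, 1 of 7 tested was called. Lyn, which phosphorylates both ITAM and ITIM, had a log2 fold change of 0.91 and an adjusted p of 0.0322, and Syk one of 1.004 with an adjusted p of 0.307. Fyn, the most counted kinase of the list and widely expressed in brain, gave -0.20 (adjusted p = 0.647).

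Adaptors and lipid enzymes of activating signalling had 5 of 13 tested genes called, the largest number of any pathway list. It was not the largest share, since 3 of 5 genes of the phagocyte oxidase were called. Of all genes tested, 1.2% were called higher. The adaptor SLP-76 (Lcp2) had a log2 fold change of 1.55 (adjusted p = 0.000922), the exchange factor Vav1 one of 1.51 (adjusted p = 0.00527), the GTPase Rac2 one of 1.31 (adjusted p = 0.000809) and the phospholipase Plcg2 one of 1.25 (adjusted p = 0.0249). The fifth was Lat2, and Grb2, the most counted gene of the list, gave -0.04 (adjusted p = 0.952). With 1 of the 6 mice left out, Plcg2 and Lat2 were each called in 1 of the 6 fits.

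The inhibitory side had 3 of 14 tested genes called. Pirb, an ITIM receptor of myeloid cells, had 9, 4 and 2 counts in WT and 40, 73 and 183 counts in GFAP-IL6. Its log2 fold change was 3.63 (SE 0.37, adjusted p = 3.79e-05), though the near-identical Pira genes may share its reads. The adaptor Dok3 (1.09, adjusted p = 0.0173) and the phosphatase SHP-1 (Ptpn6; log2 fold change 1.06, adjusted p = 0.0243) were called as well. Inpp5d, the phosphatase that Fcgr2b recruits, gave 6.47 ± 1.48 and 7.86 ± 0.290 CPM (SD, n = 3 mice each), a log2 fold change of 0.24 with an adjusted p of 0.807. Sirpa, the most counted gene of this list, gave -0.02 (adjusted p = 0.979).

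Of the 5 subunits of the phagocyte oxidase, which makes superoxide after receptor engagement, 3 were called. Cyba rose from 11.4 ± 1.95 to 25.2 ± 1.55 CPM (SD, n = 3 mice each; log2 fold change 1.14, adjusted p = 0.000207). Ncf1, a cytosolic subunit, had a log2 fold change of 1.03 (adjusted p = 0.0479), near both thresholds. Cybb, the catalytic subunit, had 8, 15 and 2 counts in WT and 1, 12 and 38 counts in GFAP-IL6, with a log2 fold change of 0.27 (SE 0.60), so little can be said at this depth. Genes of phagocytic uptake had 0 of 10 called (4 at an unadjusted p under 0.05 by edgeR, 0 called by DESeq2), and Pak1, the most counted of them, gave -0.21 (adjusted p = 0.460).

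**Figure D4:**
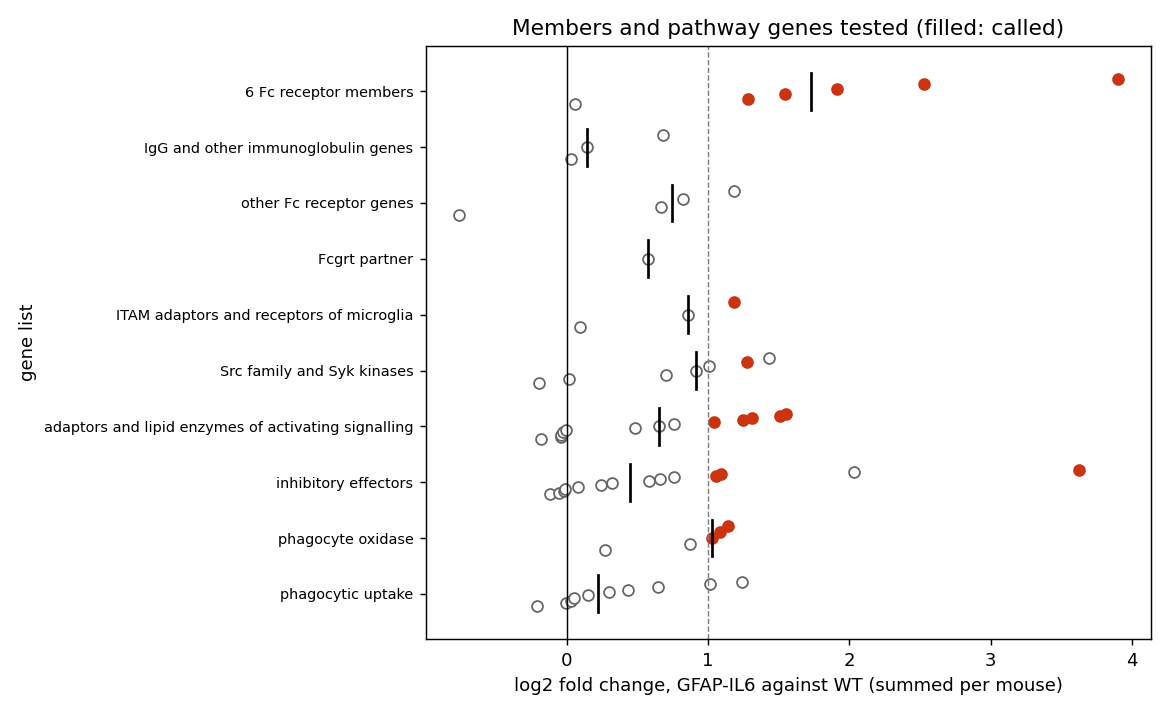
Log2 fold change of GFAP-IL6 against WT for each tested gene of the 6 receptor genes and of the 9 pathway lists, counts summed per mouse, with called genes filled and the median of each list as a black bar; the dashed line is at the threshold of 1. Called genes number 5 in the row of receptor genes and 5 in that of the adaptors and lipid enzymes, and none lies left of 0.

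Other Fc receptors and the ligand genes showed no calls. Of 12 other Fc receptor genes 4 were tested and 0 called (2 at an unadjusted p under 0.05 by edgeR, 0 called by DESeq2). Fcrls, a receptor-like gene typical of microglia, gave 31.6 ± 1.81 and 55.2 ± 10.6 CPM (SD, n = 3 mice each), with a log2 fold change of 0.82 (adjusted p = 0.00173) that missed the fold threshold. The IgE receptor genes Fcer1a and Ms4a2 had no counts in any library. Of 12 immunoglobulin genes 3 were tested and 0 called (0 at an unadjusted p under 0.05 by edgeR, 0 called by DESeq2). Ighm, the heavy chain of IgM, gave 56.3 ± 3.91 CPM in WT and 62.5 ± 7.79 CPM in GFAP-IL6, and Ighg2c, a heavy chain of IgG, 5.02 ± 1.69 and 5.51 ± 1.72 CPM (SD, n = 3 mice each). Ighg1 had no counts. Of the other B cell genes, Cd79a and Ms4a1 had at most 3 counts in any mouse, Jchain had 1 to 6, Cd79b 3 to 49 and Igkc 8 to 24, where Ighm had 418 to 2197.

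Microglia markers moved with the receptor genes. All 14 were tested, 6 were called higher, and their median log2 fold change was 0.82. Their summed level was 647 to 709 CPM in WT and 1174 to 1536 CPM in GFAP-IL6. Itgam, the integrin CD11b (6.03 to 18.1 CPM, adjusted p = 7.47e-05), C1qb (log2 fold change 1.46, adjusted p = 1.41e-06) and C1qa (1.39, adjusted p = 0.000540) led the called genes. P2ry12, Gpr34 and Sall1, markers of resident microglia that were chosen for mention after their values were seen, gave -0.02, 0.04 and 0.20 with adjusted p of 0.985, 0.975 and 0.890. In bulk tissue, more cells of a type and more RNA per cell cannot be told apart.

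Relative to the summed microglia markers, the members also differed in how far they moved. Fcgr4 went from 0.104 ± 0.0435 to 0.692 ± 0.0736 CPM per 100 CPM of markers (SD, n = 3 mice each), 6.65 times. Fcgr2b was 2.72 times its WT mean, Fcgr1 1.79 times, Fcgr3 1.44 times and Fcer1g 1.22 times, from 12.1 ± 0.748 to 14.8 ± 0.0735. For each of these 5 genes the GFAP-IL6 mice stayed above the WT mice on this scale, and the share of all genes that do so was not counted. Fcgrt went from 4.89 ± 0.746 to 2.54 ± 0.144, with all GFAP-IL6 mice below the WT mice. On this scale a gene whose CPM stays level must fall, because the summed markers rose (647 to 709 CPM in WT, 1174 to 1536 CPM in GFAP-IL6). The value of Fcgrt is therefore no sign of a drop in its own CPM. These ratios are a description and were not tested, and the part of microglial content in the member differences was not tested.

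**Figure D5:**
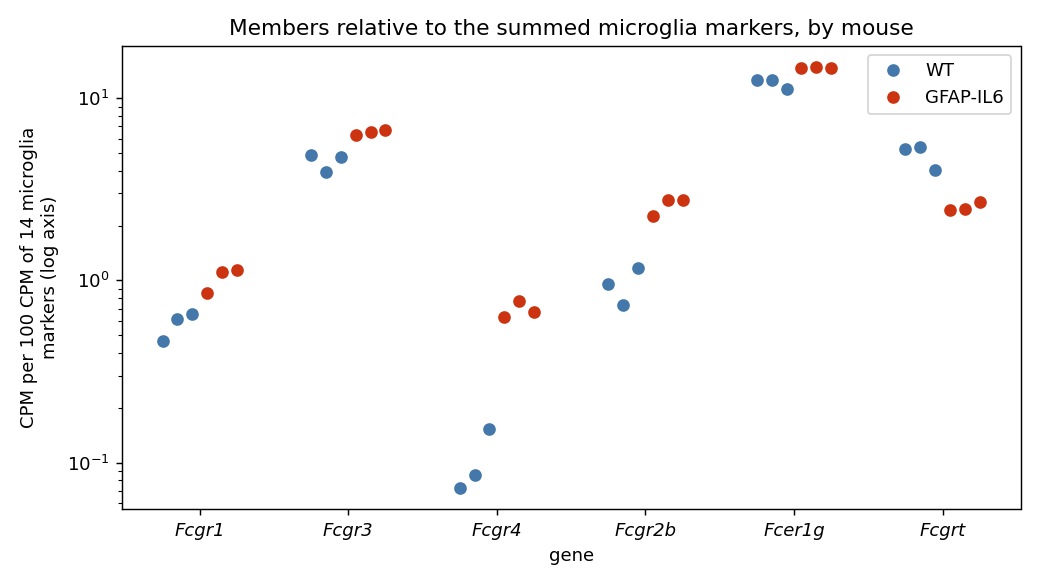
CPM of each gene per 100 CPM of the 14 summed microglia markers in each mouse, on a log axis, with WT in blue and GFAP-IL6 in red. The red points lie above the blue ones for 5 genes, with the widest gap for Fcgr4 (0.0724 to 0.154 against 0.629 to 0.773), and below them for Fcgrt (4.03 to 5.37 against 2.44 to 2.70). The marker sum was higher in GFAP-IL6, so a gene of level CPM falls on this scale.

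Markers of other cells that can carry Fc receptors were summed in the same way. The 5 monocyte markers summed to 0.262 to 0.720 CPM in WT and 0.949 to 2.31 CPM in GFAP-IL6, with 1 tested, Ccr2, and 0 called (0 at an unadjusted p under 0.05 by edgeR, 0 called by DESeq2). The 7 border macrophage markers summed to 13.3 to 15.6 CPM and 11.5 to 16.0 CPM, with 0 called (1 at an unadjusted p under 0.05 by edgeR, 0 called by DESeq2), and Pf4, the most counted, gave -0.31 (adjusted p = 0.712). The 6 neutrophil markers summed to 0.525 to 3.71 and 2.004 to 6.15 CPM, with S100a8 the most counted and Ly6g at 0. The 8 NK or T cell markers summed to 0.525 to 3.60 and 1.997 to 3.06 CPM, with Cd4 the most counted. The 7 B or plasma cell markers summed to 55.0 to 62.4 and 59.1 to 75.0 CPM, nearly all of it Ighm. The 6 mast cell markers, with Cma1 the most counted, summed to at most 0.336 CPM in any mouse. Of the neutrophil, NK or T cell and B or plasma cell markers 2, 1 and 3 could be tested and 0 were called (0 at an unadjusted p under 0.05 by edgeR, 0 called by DESeq2).

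The 6 endothelial markers, of interest because Fcgrt is expressed by brain endothelium, summed to 94.4 to 104.7 CPM in WT and 118.6 to 195.2 CPM in GFAP-IL6. None was called (4 at an unadjusted p under 0.05 by edgeR, 0 called by DESeq2), and their median log2 fold change was 0.72, with Ly6c1 at 0.82 (adjusted p = 0.0142). Of the 5 astrocyte, 4 oligodendrocyte and 4 blood markers 0 were called by edgeR or by DESeq2 (2, 0 and 0 at an unadjusted p under 0.05). Their most counted genes Slc1a2, Mbp and Hbb-bs gave 0.11, -0.14 and -0.11 on the log2 scale.

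The genes whose pattern over the 6 mice was most like that of each member were found by the root mean square (RMS) difference of log2 CPM centred on its mean. Nearest to Fcer1g was Trem2 (RMS 0.063), followed by Tspo and Serpinb6b. Nearest to Fcgr3 were Mpeg1 (RMS 0.074), which encodes perforin-2 of macrophages, C1qb and Bin2, and nearest to Fcgr1 were Ptprc (RMS 0.14), which encodes the leukocyte antigen CD45, AF251705 and Lyz2. For Fcgr2b they were Tmem252 (RMS 0.095), Vwf, the von Willebrand factor gene, and C5ar1. For Fcgr4 they were the chemokine genes Ccl8 (RMS 0.32) and Ccl12 and the complement gene C4b, at a wider distance than for the other members. For Fcgrt they were Ralgds (RMS 0.045), Fam163a and Mfge8. No member was among the nearest 3 of another.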

How the data were processed

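Total RNA of mouse frontal cortex was profiled by 3'Pool-seq, which reads the 3' end of polyadenylated transcripts. The authors trimmed polyA stretches, mapped what remained to mm10 (STAR 2.4) and counted reads on GENCODE vM6 genes with featureCounts, and they deposited raw counts per gene and library without normalization. Gene lengths in the same table were not used to scale values. Library totals ranged from 1524165 to 12256374 counts, and totals per mouse from 7852743 to 37582644. Reads carry no molecular identifiers, so they are not independent molecules.

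Groups came from the labels. Counts were summed per mouse and tested with edgeR 4.0.16 in R 4.3.3 (quasi-likelihood test, TMM, filterByExpr, Benjamini-Hochberg over all genes), in the sums and in each set, and within mice for the cDNA amount. The study's methods name DESeq2, run here as version 1.42.0 among the alternatives, with other scaling, filters, thresholds, a block of same-numbered mice, thinning, each mouse left out, and limma 3.58.1 (voom). The SE given with a log2 fold change is its absolute value divided by the square root of edgeR's F statistic. Tests were checked on simulated data. Ratios used an exact permutation test (scipy 1.17.1) with 0.5 added to counts. Positions are from GENCODE vM21 (mm10) and promoters from RefSeq. 1 pathway symbol, Cd300lb, matched more than 1 gene and was left out.

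The members, gene lists and markers were chosen with earlier results of these data known. Genes were named by rule: all members, per pathway list the called genes (up to 4 by absolute log2 fold change) and the most counted gene, per marker list the most counted and up to 3 called, and the 3 genes nearest each member by RMS difference (log2 CPM, prior count 2). Others named were picked after their values were seen. A few genes that the rule names are not reported here.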

Additional observations from a re-analysis of the deposited data

How the results depend on the processing

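The number of members called in the summed counts stayed at 5 under DESeq2, other scalings, no filter, no fold threshold, thinning, voom over all 24 libraries and without each mouse. It was 4 with at least 10 summed counts in every mouse, where Fcgr4 is no longer tested. It was also 4 when the thresholds were 0.1 for the adjusted p and 1.5 for the log2 fold change. In the sets, at least 10 counts in every library left 3 called in 2ngA, 2ngB, 1ngA and 1ngB, since fewer genes are tested, and the stricter fold threshold left 3 in 1ngA. Same-numbered mice did not deviate together (r = -0.049, -0.037 and -0.061 over 14621 genes). Such values from 3 mice in a group cannot decide whether the numbers pair the mice. A replicate block left 5 members and 149 genes called, against 180 genes without it. With a mouse left out, the log2 fold change of Fcgrt ranged from -0.10 to 0.17, turned negative without WT mouse 3 (-0.037) and without GFAP-IL6 mouse 3 (-0.10), and was not called in any alternative.

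The log2 ratio to Fcgr2b kept its direction in every set. For Fcgr1 the change was -0.93 in 2ngB and -0.21 in 1ngA, and for Fcgr3 -0.55 in 2ngA and -1.23 in 1ngB. For Fcgr4 it was 1.75 in 2ngA, 1.62 in 2ngB, 1.72 in 1ngA and 0.74 in 1ngB. For the summed activating receptors it was -0.44 in 2ngA and -1.09 in 1ngB. The cause of these shifts was not tested. Without each mouse in turn, between 7 and 14 pathway genes were called.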
